A study of Mus musculus with 12 samples.

Results

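The right ventricle under a clipped pulmonary artery was compared between 3 weeks and 1 week after the operation. The comparison used 4 of the 12 arrays of the series, 2 titled as clipped right ventricle at 3 weeks and 2 at 1 week, and covered 19938 genes with 1 probe set each. All mice were male and of the strain C57BL/6. The mice at 3 weeks were 15 weeks old and those at 1 week were 13 weeks old, so time under the clip and age cannot be told apart. In pulmonary artery clipping (PAC), a Weck haemoclip is closed on the vessel, which narrows the outflow of the right ventricle (RV). Hearts were perfused with buffer, and the RV was separated from the septum and the left ventricle (LV). Levels are also given for RV of PAC mice at 6 weeks, aged 18 weeks, and of sham-operated mice at 3 weeks, aged 15 weeks, with 2 arrays each. Sham LV and LV after transaortic constriction (TAC), both at 3 weeks and 15 weeks of age, were not compared here. Like the other arrays, they entered the estimate of spread, the choice of probe set per gene and most alternative fits. None of the 12 arrays was of sham RV at 1 week, so time since the operation itself cannot be told apart from time under the clip. The labels do not say whether the 2 arrays of a group came from separate animals. The p-values therefore measure the spread between these samples, which may be technical.

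Pressure overload makes the ventricle wall thicken. In the first days cardiomyocytes switch on natriuretic peptides and fetal contractile genes, macrophages enter, and fibroblasts, endothelial cells and macrophages divide. Later, matrix is cross-linked and matures, and capillaries grow with the muscle. The heart also has a circadian clock, in which Arntl and Clock drive output genes such as Dbp and Nr1d1 during part of each day.

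The values were log2 expression levels from Affymetrix whole-transcript arrays, in which a difference of 1 is a doubling. A gene was called when its limma p, adjusted by the Benjamini-Hochberg method over all genes, was under 0.05. The median difference over all genes was 0.0015, and the median difference in size between the 2 arrays of a group was 0.116 at 3 weeks and 0.137 at 1 week. The ventricular markers Myl2, Myl3, Irx4 and Myh6 averaged 12.24 and 12.15 on arrays 1 and 2 at 3 weeks, against 12.30 and 12.19 at 1 week. The atrial markers Bmp10, Myl7, Myl4 and Sln averaged 7.66 and 9.30 at 3 weeks, against 8.88 and 10.23 at 1 week, 7.40 and 7.83 at 6 weeks, and 6.67 and 5.86 in sham RV. In each clipped group array 2 thus had the higher atrial level, and both 1-week arrays were above 3-week array 1. The 1-week pair was also the least alike of the 6 pairs, with a correlation between arrays of 0.9917. Its array 2 lay at 30.85 on the first principal component, against 4.36 for array 1. Because the tissue was not separated into cells, fewer cells of a type and less RNA per cell cannot be told apart in any value that follows.

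Of the 19938 genes, 11 were called (0.0552%), 5 higher at 3 weeks (0.0251%) and 6 lower (0.0301%). The higher ones were Mmrn1, Bdh1, Tac1, Ndnf and Arntl, and the lower ones were Ddc, Dbp, Slc38a1, Nr1d1, Epn3 and Tcap. In 7 of the 11 the difference was at least 2-fold, and in all 11 the 2 groups of arrays did not overlap. Over all genes, both 3-week arrays lay above both 1-week arrays in 3365 (16.9%) and below them in 3255 (16.3%). A difference of at least 2-fold was measured in 11 genes (0.0552%) higher and 38 (0.191%) lower at 3 weeks, called or not. At an unadjusted p under 0.05 there were 733 higher (3.68%) and 853 lower (4.28%). The count of calls rests on single arrays. It was 346 without 1-week array 1, with 59 higher and 287 lower, against 4 without 1-week array 2 and 5 without either 3-week array. It was 3 without any one sham array, 9 without either 6-week array and 4 with only 1 TAC array. All 11 genes kept their direction in every alternative in which they were measured.

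**Figure D1:**
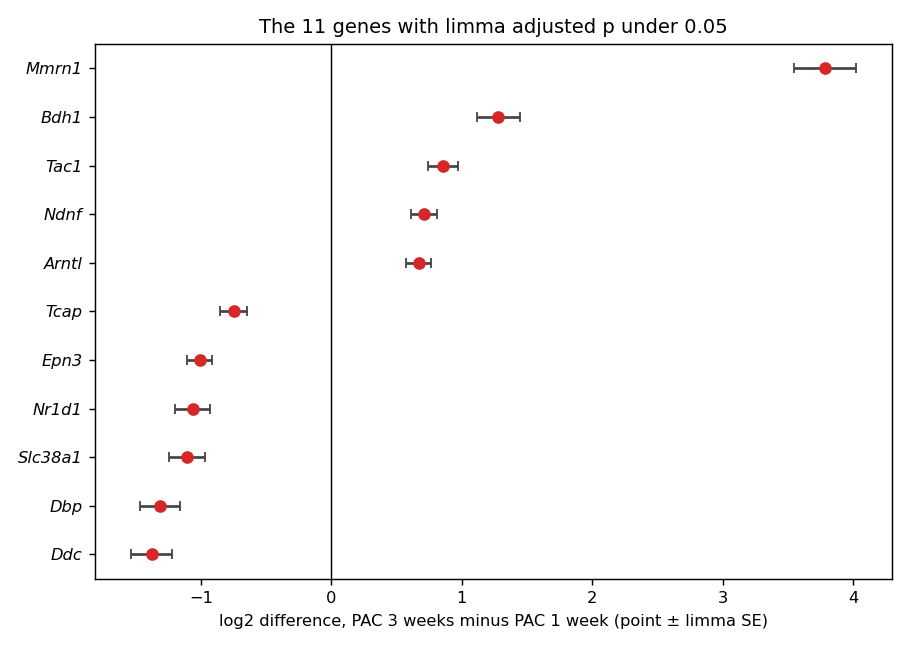
Log2 difference between 3 weeks and 1 week of PAC for the 11 called genes, with the limma standard error as bars (2 arrays per group). Mmrn1 lies at 3.78, and the other 10 genes lie between -1.38 and 1.28.

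Genes of the circadian clock changed in opposite directions between the 2 times. Dbp, a clock output transcription factor, had 8.17 and 7.85 in 3-week PAC ventricles, against 9.48 and 9.17 in 1-week PAC ventricles. Both 3-week arrays lay below both 1-week arrays. Dbp fell by 1.31 ± 0.16 (SE) on the log2 scale, with a limma adjusted p of 0.0245. Nr1d1, the repressor REV-ERB alpha that acts on the Arntl promoter, had 9.75 and 9.48 at 3 weeks, against 10.76 and 10.60 at 1 week. It fell by 1.06 ± 0.14 (limma adjusted p = 0.0301). Arntl, the activator BMAL1, had 8.62 and 8.70 at 3 weeks, against 7.93 and 8.05 at 1 week. It rose by 0.67 ± 0.10 (limma adjusted p = 0.0489). The 3 genes thus lay apart between the 2 times on every array, with the activator high where the output gene and the repressor were low.

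The clock list held 17 measured genes, Dbp, Nr1d1 and Arntl included. Of the 17, 1 was called higher and 2 lower, against 0.0251% and 0.0301% of all genes. Both 3-week arrays were higher in 4 (23.5%, against 16.9% of all genes) and lower in 7 (41.2%, against 16.3%). Nfil3, a repressor that competes with Dbp for its DNA element, had 7.85 and 7.80 at 3 weeks, against 7.11 and 7.20 at 1 week, a difference of 0.67 with a limma adjusted p of 0.134. Cry1, a repressor of Arntl and Clock, had 7.26 and 7.25 at 3 weeks, against 6.95 and 7.03 at 1 week. Ciart, another repressor of the clock, had 6.57 and 6.29 at 3 weeks, against 6.73 and 6.92 at 1 week. The groups did not overlap in these 3 genes, and none was called. Per1, Per2 and Per3, the period genes, overlapped between the groups, with differences of -0.12, -0.03 and -0.32; these 3 were singled out after their values were seen. The time of day at which hearts were taken is not given in the sources used here, and its part in these values was not tested.

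The clock genes did not follow the weeks in order. For Dbp, sham RV gave 7.93 and 8.14 and the PAC groups gave 9.48 and 9.17 at 1 week, 8.17 and 7.85 at 3 weeks, and 9.63 and 9.28 at 6 weeks. For Arntl, sham RV gave 8.66 and 8.55 and the PAC groups gave 7.93 and 8.05 at 1 week, 8.62 and 8.70 at 3 weeks, and 7.89 and 7.99 at 6 weeks. In both genes the 3-week clipped arrays lay with the sham arrays, and the 1-week and 6-week clipped arrays lay together. Sham RV and 3-week PAC mice were of the same age and the same time after operation. The calls depended on which arrays were kept. In limma, that of Dbp was lost without 3-week array 2 (adjusted p = 0.224), without either sham RV array (0.057) and without either sham LV array (0.0519), over a range of 0.00464 to 0.516 in all alternatives. That of Nr1d1 was lost without 1-week array 2 (0.096), 3-week array 1 (0.0558), 3-week array 2 (0.226), either sham RV (0.057), either sham LV (0.0529) or either TAC array (0.0701), over a range of 0.00464 to 0.516. That of Arntl held only without 1-week array 1 (0.031) when single arrays were left out, and without any one of the other arrays it lay between 0.0677 and 0.292.

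**Figure D2:**
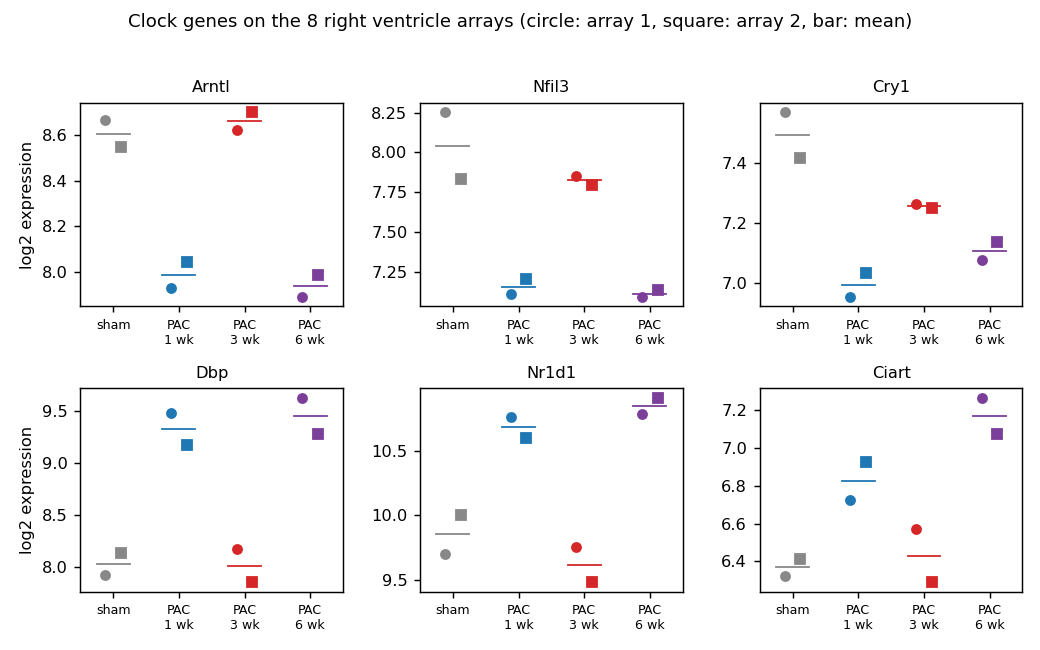
Log2 level of 6 clock genes on the 8 RV arrays by group; circles are array 1, squares array 2 and bars the mean of 2 arrays. In Arntl, Nfil3, Dbp and Nr1d1 the 3-week PAC arrays sit near sham and apart from the 1-week and 6-week PAC arrays.

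Clock factors of the Arntl and Clock pair bind the E-box, CACGTG. The promoter of Ciart is shown because it held 3 copies. They began 116, 58 and 44 bases before the start of the gene, at chr3:95882229-95882478 on the minus strand (GRCm38.p6, RefSeq). The capitals mark the E-boxes.
Ciart promoter: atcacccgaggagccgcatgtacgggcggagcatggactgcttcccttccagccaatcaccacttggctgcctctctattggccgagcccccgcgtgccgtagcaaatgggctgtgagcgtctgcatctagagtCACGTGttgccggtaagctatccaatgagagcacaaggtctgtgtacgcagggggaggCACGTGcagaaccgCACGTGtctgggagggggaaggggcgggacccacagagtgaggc
Over the 250 bases before the start, on both strands, 5 of the 15 clock genes with a promoter in the RefSeq table held the E-box (33.3%), against 6.86% of all 27025 genes in that table. None of the called genes Dbp, Nr1d1 and Arntl held one in this window. The D-box to which Dbp binds, searched as TTATGTAA or TTATGCAA, was in 2 of 15 (13.3%), against 1.79% of all. The RORE to which Nr1d1 binds, in the 3 spellings searched, lay wholly within this window in 0 of 15, against 0.0703% of all. The Arntl promoter at chr7:113207261-113207510 on the plus strand ended with all but the last base of a searched spelling. A site running past the window's end could not be counted, so the 0 does not show that Arntl lacks a RORE. These motifs were chosen after the clock values were seen.

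Tcap, the titin cap protein of the sarcomere Z-disc, was the only called gene among the 23 measured members of the sarcomere list. Its levels were 10.57 and 10.61 in 3-week PAC ventricles, against 11.44 and 11.24 in 1-week PAC ventricles. The SD was 0.03 at 3 weeks and 0.14 at 1 week, and the groups did not overlap. Tcap fell by 0.75 ± 0.10 (limma adjusted p = 0.0479). The 6-week PAC arrays had 11.32 and 11.25 and sham RV had 10.89 and 10.85, so that, as for Dbp, the 6-week arrays lay with the 1-week arrays. The call held without 1-week array 1 (0.0289) and was lost without any other single array, with adjusted p between 0.0519 and 0.231.

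Genes of cell division had lower levels on the 3-week arrays in nearly every case, but none was called. Of 59 measured genes for spindle, kinetochore and cytokinesis, 45 were lower on both 3-week arrays than on both 1-week arrays (76.3%, against 16.3% of all genes) and none was higher. The median difference was -0.64, against 0.0015 over all genes, and 58 of 59 differences were below 0. An unadjusted p under 0.05 was given to 44 of the 59, all lower, and the smallest adjusted p was 0.134. Most members were dim. Only 7 of the 59 were at or above the median level over all genes, and their median difference was -0.47. Top2a, the topoisomerase that untangles chromosomes, had 7.23 and 7.08 in 3-week PAC ventricles, against 7.85 and 8.81 in 1-week PAC ventricles. Mki67, which coats mitotic chromosomes, had 7.29 and 6.75 at 3 weeks, against 7.76 and 8.44 at 1 week. Ccnb2, a mitotic cyclin, had 6.36 and 6.14 at 3 weeks, against 6.78 and 7.32 at 1 week. Groups did not overlap in these genes, and in each of them 1-week array 2 was the highest of the 4 arrays.

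The size of this difference depended on which 1-week array was used. The mean of the 59 genes was 6.13 and 5.93 on the 3-week arrays, against 6.36 and 7.03 on the 1-week arrays, 5.86 and 5.75 at 6 weeks, and 5.64 and 5.67 in sham RV. Every PAC array thus lay above both sham arrays, and the 2 arrays at 1 week lay above all others. Without 1-week array 1 the median difference was -1.06 and 39 of the 59 genes were called lower. Without 1-week array 2 it was -0.31 and none was called. Array 2 of the 1-week group also had the highest atrial and macrophage marker levels. With the level of atrial markers as a covariate in the limma model the median was -0.60. In that model 34 of the 59 genes had an unadjusted p under 0.05, in place of 44. No fit used the macrophage level, and the cause of the mitotic values was not tested. With array 2 of both times left out the median was -0.21.

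**Figure D3:**
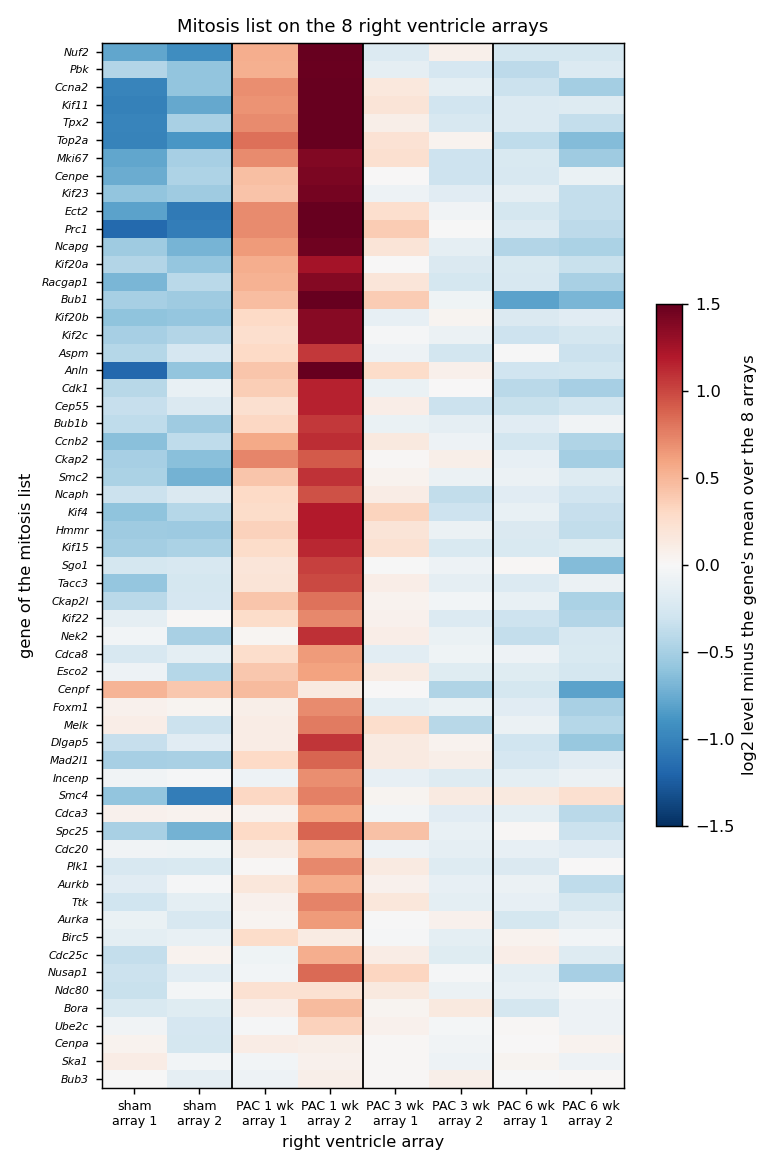
Each row is a gene of the mitosis list and each column an RV array; colour gives the log2 level minus the gene's mean over the 8 arrays, from blue (low) to red (high). The 1-week array 2 column is the reddest, with 1-week array 1 next, and the 3-week and 6-week columns lie between these and sham for most genes.

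Genes that cells need before mitosis, for copying DNA, showed the same direction at a smaller size. Of 41 measured genes, 28 were lower on both 3-week arrays (68.3%, against 16.3% of all genes) and none was higher. All 41 differences were below 0, with a median of -0.27. Without 1-week array 1 the median was -0.45 and without 1-week array 2 and 3-week array 2 it was -0.09. Hells, a chromatin remodeller of replicating cells, had 6.02 and 5.83 at 3 weeks, against 6.53 and 7.33 at 1 week (difference -1.01, limma adjusted p = 0.177). Prim1, which makes the primers of replication, had 5.86 and 6.00 at 3 weeks, against 6.29 and 7.08 at 1 week. Neither overlapped between the groups. Fbxo5, an inhibitor of the mitotic ubiquitin ligase, Trim59 and Hmgb2, a chromatin protein of dividing cells, were among the 15 lower genes named by smallest p. Fbxo5 had 5.87 and 6.09 at 3 weeks, against 6.90 and 7.33 at 1 week, with a limma adjusted p of 0.0756. Trim59 and Hmgb2 differed by -1.17 and -0.84, both with a limma adjusted p of 0.0881, and did not pass. Ribosome biogenesis, a process of growing cells, had 5 of 30 measured genes higher (16.7%) and 6 lower (20%) on both 3-week arrays, near the shares of all genes. Its median was -0.05.

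Promoters are shown for 3 mitotic genes that held both of the motifs described next. They are examples and do not stand for the whole list. The DREAM complex, which silences such genes in cells at rest, binds the CHR element, TTTGAA or TTCGAA, and NF-Y binds CCAAT. The capitals mark both, on either strand, in the 250 bases before the start (GRCm38.p6, RefSeq). Ccnb2 lies at chr9:70421555-70421804 on the minus strand, Kif11, a spindle motor, at chr19:37376132-37376381 on the plus strand and Top2a at chr11:99024190-99024439 on the minus strand.
Ccnb2 promoter: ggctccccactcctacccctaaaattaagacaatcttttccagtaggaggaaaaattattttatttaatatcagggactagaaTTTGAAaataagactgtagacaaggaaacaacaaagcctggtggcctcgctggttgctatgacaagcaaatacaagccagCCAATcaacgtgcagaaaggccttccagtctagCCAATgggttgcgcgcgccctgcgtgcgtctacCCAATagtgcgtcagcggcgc
Kif11 promoter: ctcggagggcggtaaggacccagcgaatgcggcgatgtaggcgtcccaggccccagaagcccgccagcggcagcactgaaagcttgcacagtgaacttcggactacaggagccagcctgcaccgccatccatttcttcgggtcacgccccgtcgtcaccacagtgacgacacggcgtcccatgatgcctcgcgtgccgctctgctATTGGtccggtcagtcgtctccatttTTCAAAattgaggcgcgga
Top2a promoter: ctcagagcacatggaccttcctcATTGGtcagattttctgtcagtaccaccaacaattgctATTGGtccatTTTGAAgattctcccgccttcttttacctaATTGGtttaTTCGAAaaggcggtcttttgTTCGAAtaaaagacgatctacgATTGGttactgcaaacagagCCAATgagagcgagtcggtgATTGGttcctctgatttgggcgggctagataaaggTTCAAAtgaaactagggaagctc
Ccnb2 held 1 CHR and 3 CCAAT matches, Kif11 1 and 1, and Top2a 4 and 6. Among the 46 mitosis list genes with a promoter in the table, 19 held a CHR match (41.3%), against 19.6% of all 27025 genes in it. CCAAT was in 32 of the 46 (69.6%), against 37.5% of all, and in 11 of the 15 clock genes (73.3%). The E2F element, searched as GGCGGGAA, was in 0 of 46, against 2.13% of all.

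Markers of the epicardium, the mesothelial sheet on the outside of the heart, had lower levels at 3 weeks. Of 14 measured genes, 10 were lower on both 3-week arrays (71.4%, against 16.3% of all genes), none was higher, and the median was -0.60; none was called. Msln, mesothelin, had 6.51 and 6.81 in 3-week PAC ventricles, against 7.92 and 7.28 in 1-week PAC ventricles. Upk1b, a uroplakin of mesothelium, had 6.66 and 6.94 at 3 weeks, against 8.55 and 7.82 at 1 week. In both, 1-week array 1 was the highest, whereas Aldh1a2, the retinoic acid enzyme of activated epicardium, was highest on 1-week array 2. Aldh1a2 had 7.72 and 7.83 at 3 weeks, against 8.19 and 9.69 at 1 week. Limma adjusted p was 0.283 for Msln, 0.350 for Upk1b and 0.424 for Aldh1a2. Wt1, Tbx18, Krt18 and Rspo1 were the members that overlapped between the groups; they were singled out after their values were seen. The median was -0.25 without 1-week array 1 and -0.85 without 1-week array 2. The mean of the list was 6.42 and 6.58 at 3 weeks, against 7.28 and 6.90 at 1 week, with sham RV at 6.88 and 6.42. Sham array 2 thus lay at the 3-week levels, whereas sham array 1 lay above both 3-week arrays and just under 1-week array 2.

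Macrophage genes had lower levels at 3 weeks in most cases. Of 32 measured genes of monocytes and recruited macrophages, 11 were lower on both 3-week arrays (34.4%, against 16.3% of all genes). In that list 1 was higher (3.12%, against 16.9% of all genes), with a median of -0.41 and no call. Of 14 genes of resident macrophages, 6 were lower (42.9%) and none higher, with a median of -0.25. Csf1r, the receptor for the macrophage growth factor, had 8.71 and 8.88 at 3 weeks, against 9.04 and 9.43 at 1 week. Arg1, arginase 1 of wound macrophages, had 5.26 and 5.15 at 3 weeks, against 5.88 and 6.17 at 1 week (difference -0.82, limma adjusted p = 0.158). Cx3cr1, the fractalkine receptor, had 7.34 and 7.37 at 3 weeks, against 7.61 and 8.23 at 1 week. None of these overlapped between the groups. As with mitosis, 1-week array 2 stood highest, at a list mean of 7.91, against 7.20 for array 1. The 3-week arrays were at 7.02 and 7.30, the 6-week arrays at 6.96 and 6.99, and sham RV at 6.78 and 6.79. Without 1-week array 1 the median of the recruited list was -0.81 and 14 genes were called lower, and without 1-week array 2 it was -0.09 with none called. With the level of atrial markers as a covariate in the limma model the median was -0.26, with 5 genes at an unadjusted p under 0.05 in place of 13, and without array 2 of both times it was -0.20.

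Other immune lists gave no call, and of those in this paragraph only MHC class II had all its differences in the same direction. MHC class II had all 8 differences below 0 and a median of -0.14, with 2 of 8 lower on both arrays (25%). Cd74, its invariant chain, had 8.46 and 8.78 at 3 weeks, against 9.03 and 9.21 at 1 week. Neutrophil, lymphocyte and mast cell lists had medians of 0.01, 0.02 and 0.03. Of their members, 2 of 11, 2 of 14 and 3 of 8 were higher on both 3-week arrays, against 16.9% of all genes. Lower on both were 0, 2 and 3, against 16.3% of all genes. The mean levels of these 3 lists on the 4 arrays were 4.78 to 4.95, 5.0 to 5.17 and 5.63 to 5.81, below the array medians of about 6.3. Ly6g, which marks neutrophils, had 3.97 and 3.75 at 3 weeks, against 3.73 and 3.77 at 1 week. Kit, the stem cell factor receptor, was the mast cell list member with the smallest p, at 7.26 and 7.03 at 3 weeks, against 7.77 and 7.81 at 1 week (limma adjusted p = 0.0849). Interferon-induced genes rested on 1 array. Ifit1 had 6.80 and 8.49 at 3 weeks, against 7.27 and 7.52 at 1 week, and none of 19 measured members was separated in either direction. The mean of the list was 7.46 and 8.33 at 3 weeks, and its median difference of 0.11 became -0.34 without 3-week array 2 and 0.57 without 3-week array 1.

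**Figure D4:**
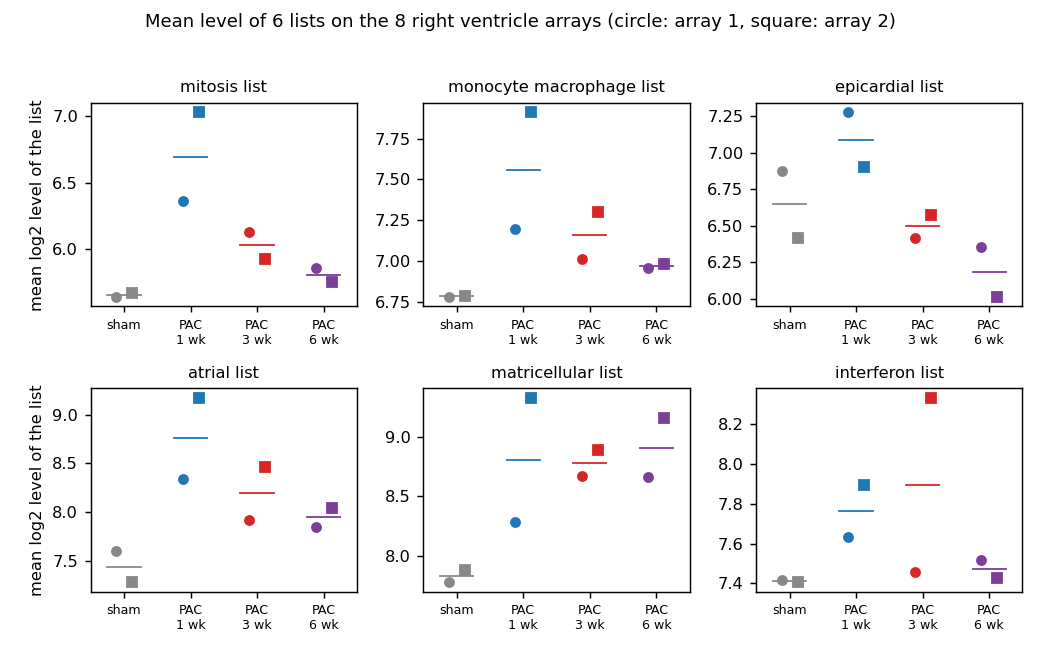
Mean log2 level of the measured members of 6 lists on the 8 RV arrays; circles are array 1, squares array 2 and bars the mean of 2 arrays. The mitosis and macrophage lists are highest on 1-week array 2, the interferon list on 3-week array 2, and the epicardial list on the 1-week arrays.

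Chemokines and complement held genes of both directions. Cxcl12, which holds CXCR4-bearing cells in the tissue, had 10.13 and 10.26 in 3-week PAC ventricles, against 9.49 and 9.52 in 1-week PAC ventricles. C7, a part of the membrane attack complex, had 9.52 and 8.97 at 3 weeks, against 7.91 and 8.10 at 1 week. Both had no overlap between the groups, with differences of 0.69 and 1.24 and limma adjusted p of 0.123 and 0.104. C3ar1, the receptor for the complement fragment C3a on myeloid cells, had 7.97 and 8.04 at 3 weeks, against 8.29 and 8.97 at 1 week. In all, 3 of 30 chemokine and cytokine genes were higher on both 3-week arrays (10%) and 3 lower (10%), with a median of -0.08. In complement 5 of 20 were higher (25%) and 2 lower (10%), with a median of 0.00. Over all genes the shares were 16.9% higher and 16.3% lower.

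Mmrn1 had by far the largest difference of any gene called. It encodes multimerin 1, a large secreted protein stored in platelets and endothelial cells, and lies at chr6:60944317-60989378 (GRCm38.p6). Its levels were 7.52 and 7.96 in 3-week PAC ventricles, against 4.04 and 3.88 in 1-week PAC ventricles. The 1-week arrays read below their medians of unlisted probe sets, 5.69 and 5.65, while PAC arrays at 6 weeks had 7.41 and 7.90 and sham RV 7.40 and 7.28. The 1-week arrays thus stood alone among the RV groups. The fitted log2 difference was 3.78 ± 0.24 (limma adjusted p = 0.00021). With each 1-week array set at its median of unlisted probe sets, a floor chosen after the values were seen, Mmrn1 was at least 4.19-fold higher. The call held in all 20 alternatives, with adjusted p up to 0.0293. As background, some stocks sold as C57BL/6 lack a stretch of chromosome 6 that includes Mmrn1. The labels give the strain only as C57BL/6, and the substrain of the mice was not tested. Within 5 Mb on each side of Mmrn1, 52 other genes were measured, with differences between -0.36 and 0.71. Of these 52, 1 was called, Ndnf, a larger share than the 0.0552% of all genes. An unadjusted limma p under 0.05 was given to 8 of the 52, also a larger share than the 7.95% of all genes.

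Ndnf, a secreted neurotrophic factor that acts on endothelial cells, had 7.33 and 7.40 in 3-week PAC ventricles, against 6.65 and 6.67 in 1-week PAC ventricles. It rose by 0.71 ± 0.10 (limma adjusted p = 0.0485). The groups did not overlap. The 6-week PAC arrays had 6.86 and 6.90, and sham RV had 7.11 and 6.93. The call held without 1-week array 1 (0.0262) and was lost without any other single array, with adjusted p between 0.0677 and 0.290.

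No endothelial gene of the list other than Mmrn1 was called. Of 27 measured genes, Mmrn1 included, 11 were higher on both 3-week arrays (40.7%, against 16.9% of all genes) and 2 lower (7.41%), with a median of 0.10. Kdr, the main receptor for VEGF, had 11.54 and 11.61 at 3 weeks, against 11.25 and 11.13 at 1 week. Sox17, an arterial transcription factor, had 7.49 and 8.01 at 3 weeks, against 6.97 and 7.23 at 1 week. The groups did not overlap in either, and limma adjusted p was 0.280 and 0.241. The median was 0.23 without 3-week array 1 and -0.02 without 3-week array 2. Vegfa itself had 10.66 and 10.67 at 3 weeks, against 10.34 and 10.38 at 1 week (limma adjusted p = 0.280). Pdgfd, a platelet-derived growth factor, had 8.73 and 8.95 at 3 weeks, against 8.30 and 8.03 at 1 week (limma adjusted p = 0.0771). The angiogenic list as a whole had 6 of 24 genes higher (25%) and 4 lower (16.7%) on both arrays, with a median of 0.05. Angptl4, an inhibitor of lipoprotein lipase, was among the lower ones at 6.16 and 7.02, against 7.45 and 7.33 at 1 week.

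Mural cell genes, of pericytes and smooth muscle, had a median of 0.21. Of 19 measured, 7 were higher on both 3-week arrays (36.8%, against 16.9% of all genes) and 1 lower (5.26%, against 16.3%). Higd1b, a pericyte gene, had 7.22 and 7.48 at 3 weeks, against 6.66 and 6.65 at 1 week, a difference of 0.70 with a limma adjusted p of 0.098. Vtn, vitronectin, had 9.69 and 9.50 at 3 weeks, against 9.33 and 9.01 at 1 week. Notch3, the mural Notch receptor, had 8.57 and 8.50 at 3 weeks, against 8.15 and 8.34 at 1 week. None of the 3 overlapped between the groups or was called. The median was 0.04 without 1-week array 1 and 0.11 without 3-week array 2. Lymphatic and endocardial markers had 1 of 9 higher on both arrays (11.1%), none lower, and a median of 0.08.

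**Figure D5:**
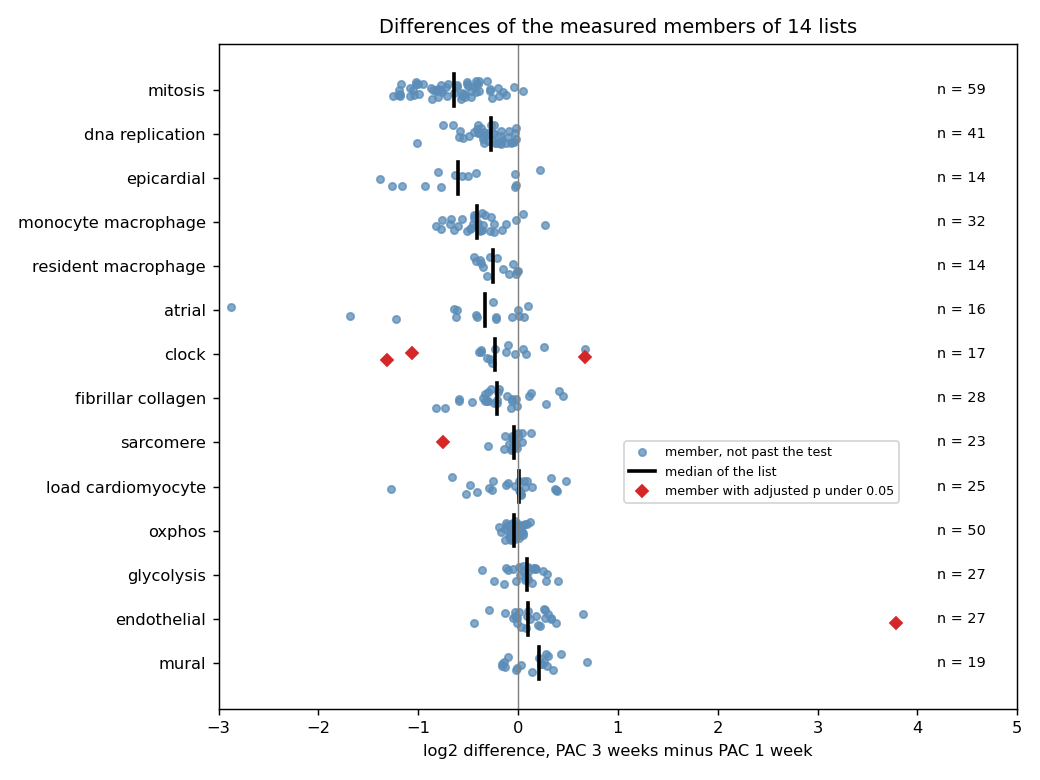
Log2 difference between 3 weeks and 1 week of PAC for every measured member of 14 lists; diamonds are called genes and black bars list medians. Mitosis lies lowest by median at -0.64 and the mural list highest at 0.21, while oxphos spans only -0.19 to 0.12.

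The other called genes were an enzyme of ketone use, a neuropeptide, an amine-making enzyme, an amino acid carrier and an endocytic adaptor. Bdh1, which interconverts the ketone bodies in mitochondria, had 10.56 and 10.50 in 3-week PAC ventricles, against 9.12 and 9.37 in 1-week PAC ventricles. It rose by 1.28 ± 0.16 (2.43-fold, limma adjusted p = 0.0301). The 6-week PAC arrays had 9.93 and 10.44 and sham RV 9.36 and 9.67, so both 3-week arrays were the highest of the 8 RV arrays. Its call was lost without 1-week array 2 (0.0907), 3-week array 1 (0.12), 3-week array 2 (0.224), either sham RV (0.057), either sham LV (0.0604) or either TAC array (0.0701). Over all alternatives its adjusted p ran between 0.00876 and 0.257.

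Tac1, the precursor of substance P, had 6.07 and 5.96 in 3-week PAC ventricles, against 5.17 and 5.15 in 1-week PAC ventricles. Both 1-week arrays read below their medians of unlisted probe sets, 5.69 and 5.65. The fitted log2 difference was 0.85 ± 0.11 (limma adjusted p = 0.038), and against those medians Tac1 was at least 1.27-fold higher. Sham RV had 6.00 and 5.97, within the 3-week range, and the 6-week arrays had 5.54 and 5.91. When single arrays were left out, the call held without 1-week array 1 (0.0198) or either 6-week array (0.00876) and was lost without any other, with adjusted p between 0.0727 and 0.224. Penk, the precursor of enkephalins, had 7.73 and 7.31 at 3 weeks, against 6.72 and 6.01 at 1 week, and sham RV had 8.75 and 8.54. Inmt, an N-methyltransferase, had 9.18 and 8.46 at 3 weeks, against 7.64 and 6.56 at 1 week, and sham RV had 10.36 and 9.81. In both, the 3-week arrays lay between the 1-week and the sham arrays. Neither was called, with differences of 1.15 and 1.72 and a limma adjusted p of 0.11 each.

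Ddc, the decarboxylase that makes dopamine and serotonin, had 5.78 and 6.07 in 3-week PAC ventricles, against 7.33 and 7.28 in 1-week PAC ventricles. It fell by 1.38 ± 0.16 (2.60-fold, limma adjusted p = 0.0206). The 3-week levels lay little above those arrays' medians of unlisted probe sets, 5.71 and 5.79. Sham RV had 6.25 and 5.92 and the 6-week PAC arrays 6.63 and 6.31, so the 1-week arrays were the highest of the 8. The call was lost without 1-week array 2 (0.0907) or 3-week array 1 (0.0815), over a range of 0.00464 to 0.257. Slc38a1, a carrier that brings glutamine into cells, had 7.08 and 7.35 at 3 weeks, against 8.14 and 8.50 at 1 week. It fell by 1.10 ± 0.14 (limma adjusted p = 0.0301). Sham RV was lower than both times, at 6.64 and 6.62, and the 6-week PAC arrays were at 7.81 and 7.99, so the 3-week arrays lay between sham and the other clipped groups. Its call was lost without 1-week array 2 (0.132), 3-week array 1 (0.12), 3-week array 2 (0.0731), either sham RV (0.0769), either sham LV (0.0519) or either TAC array (0.0701), over a range of 0.00315 to 0.576. Epn3, an epsin of clathrin-coated vesicles, had 7.60 and 7.65 at 3 weeks, against 8.59 and 8.68 at 1 week. The groups did not overlap, and it fell by 1.01 ± 0.09 (limma adjusted p = 0.00477). No single array ended that call, whereas a fit to only the 4 arrays compared did (0.268), as did leaving out array 2 of both times (0.149).

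The genes that report load on cardiomyocytes did not differ by a called amount. Nppa, atrial natriuretic peptide, had 13.06 and 13.59 in 3-week PAC ventricles, against 12.85 and 13.78 in 1-week PAC ventricles, and sham RV had 10.98 and 10.69. The 2 arrays at 1 week spanned both arrays at 3 weeks. Nppb, B-type natriuretic peptide, had 11.64 and 11.60 at 3 weeks, against 10.41 and 11.87 at 1 week. Myh7, the slow myosin of the fetal heart, had 11.18 and 11.93 at 3 weeks, against 10.53 and 11.92 at 1 week. Acta1, skeletal actin, had 12.65 and 12.18 at 3 weeks, against 12.59 and 13.20 at 1 week. In these 4 genes the arrays overlapped between the times, every clipped array lay above both sham arrays, and SE was 0.31 to 0.42. Myh6, the adult fast myosin, had 13.70 and 13.71 at 3 weeks, against 13.73 and 13.69 at 1 week. Of the 25 load genes, 2 were higher on both 3-week arrays (8%) and 4 lower (16%), against 16.9% and 16.3% of all genes. The list median was 0.01. That median was -0.36 without 1-week array 1 and 0.21 without array 2 of both times.

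Some muscle genes outside the main sarcomere set had lower values at 3 weeks without passing. Mybpc2, a myosin-binding protein of fast skeletal muscle, had 7.46 and 7.51 at 3 weeks, against 8.39 and 9.12 at 1 week. Casq1, the calsequestrin of fast skeletal muscle, had 7.25 and 6.91 at 3 weeks, against 8.21 and 8.72 at 1 week. Limma adjusted p was 0.0756 for both, with differences of -1.27 and -1.38. Markers of skeletal muscle as a tissue did not share this, with 2 of 13 higher (15.4%), 2 lower (15.4%) and a median of 0.01. In the sarcomere list 1 of 23 was higher on both arrays (4.35%) and 3 lower (13%), with a median of -0.04. In the calcium list 5 of 22 were higher and 5 lower (22.7% each), against 16.9% and 16.3% of all genes. Cacna1c, the pore of the L-type calcium channel, had 10.73 and 10.74 at 3 weeks, against 10.53 and 10.26 at 1 week. Among ion channels, 3 of 27 were higher (11.1%) and 7 lower (25.9%), with a median of -0.11. Kcnq1, which carries the slow repolarising current, had 8.41 and 8.50 at 3 weeks, against 8.71 and 8.87 at 1 week (limma adjusted p = 0.359).

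Several genes of early fibrosis varied more between the 2 arrays at 1 week than between the 2 times. Postn, periostin of activated fibroblasts, had 11.01 and 11.35 in 3-week PAC ventricles, against 10.16 and 12.15 in 1-week PAC ventricles, and sham RV had 7.87 and 8.25. Tnc, tenascin C of early wound matrix, had 6.09 and 6.23 at 3 weeks, against 5.91 and 9.23 at 1 week. Timp1, a metalloproteinase inhibitor, had 8.11 and 8.84 at 3 weeks, against 7.64 and 10.58 at 1 week. Tnc and Timp1 were singled out after their values were seen. In all 3 the 1-week arrays spanned the 3-week arrays, so a difference between the times could not be told from the spread at 1 week. Col1a1, the chain of type I collagen, had 10.96 and 11.05 at 3 weeks, against 11.08 and 12.40 at 1 week, a difference of -0.73 with a limma adjusted p of 0.699. The fibrillar collagen list had 3 of 28 genes higher (10.7%) and 5 lower (17.9%), against 16.9% and 16.3% of all genes. Its median was -0.21. It was -0.43 without 1-week array 1 and 0.07 without 1-week array 2.

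Among the matrix genes higher on both 3-week arrays were some known from cartilage and tendon. Comp, cartilage oligomeric matrix protein, had 7.57 and 8.0 in 3-week PAC ventricles, against 6.09 and 7.03 in 1-week PAC ventricles. The 6-week PAC arrays had 8.14 and 9.46 and sham RV 6.27 and 6.31. Tnmd, tenomodulin of tendon, had 6.68 and 6.04 at 3 weeks, against 4.82 and 5.14 at 1 week, with 6.33 and 7.88 at 6 weeks and 5.02 and 5.08 in sham RV. Fmod, fibromodulin, had 7.94 and 7.63 at 3 weeks, against 6.39 and 7.36 at 1 week, with 8.37 and 10.03 at 6 weeks. The groups did not overlap in any of the 3, with differences of 1.22, 1.38 and 0.91 and limma adjusted p of 0.433, 0.348 and 0.673. Cilp, cartilage intermediate layer protein, had 9.79 and 9.82 at 3 weeks, against 7.74 and 9.82 at 1 week. Its 2 arrays at 1 week had an SD of 1.47, and its difference of 1.02 had an SE of 0.57. Cpxm2, a secreted carboxypeptidase-like protein, came closest to passing, at 8.52 and 9.0 at 3 weeks, against 7.59 and 7.23 at 1 week (difference 1.35, limma adjusted p = 0.0501).

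Among proteoglycans more members were higher than lower. Of 24 measured, 7 were higher on both 3-week arrays (29.2%, against 16.9% of all genes) and 1 lower (4.17%, against 16.3%). Their median was 0.02. Dcn, decorin, had 13.06 and 13.10 at 3 weeks, against 12.59 and 12.71 at 1 week, a difference of 0.43 with a limma adjusted p of 0.230. Ecm2, a leucine-rich matrix protein, had 9.19 and 9.11 at 3 weeks, against 8.45 and 8.48 at 1 week (limma adjusted p = 0.241). Fibroblast markers had 4 of 21 higher (19%) and 1 lower (4.76%), with a median of 0.10. Pi16, of adventitial fibroblasts, had 8.47 and 8.63 at 3 weeks, against 7.61 and 8.04 at 1 week. The cartilage and valve list had 5 of 15 higher (33.3%) and 1 lower (6.67%), with a median of 0.07.

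In the remaining matrix lists the share of genes higher on both 3-week arrays was below the 16.9% of all genes. Both 3-week arrays were higher in 2 of 16 other collagens (12.5%), 2 of 20 basement membrane genes (10%), 4 of 25 matricellular genes (16%), 2 of 15 elastic fibre genes (13.3%) and 5 of 30 matrix proteases and inhibitors (16.7%). They were lower in 1 of the 16, 5 of the 20, 1 of the 25, 2 of the 15 and 3 of the 30, against 16.3% of all genes. Only the basement membrane share was above that of all genes. The list medians were -0.10, -0.07, -0.04, -0.06 and -0.05. All 5 medians were lowest without 1-week array 1, with -0.41 for matricellular genes. Pxdn, peroxidasin, which cross-links collagen IV, was among the 15 lower genes named by smallest p, at 9.35 and 9.25, against 9.83 and 10.11 at 1 week (limma adjusted p = 0.0756). Frem2 of basement membranes had 6.84 and 6.89, against 7.61 and 7.73 at 1 week (limma adjusted p = 0.0527). Nid2, nidogen 2, had 7.93 and 8.03 at 3 weeks, against 8.19 and 8.64 at 1 week.

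In energy metabolism Bdh1 was the only called member. The list shares that follow stand beside 16.9% higher and 16.3% lower over all genes. Of 50 genes of oxidative phosphorylation, 2 were higher on both 3-week arrays (4%) and 5 lower (10%), with differences between -0.19 and 0.12 and a median of -0.04. Of 38 fatty acid genes, 1 was higher (2.63%) and none lower, with a median of 0.04. Of 28 genes of the citric acid cycle and ketone use, 3 were higher (10.7%) and none lower, with a median of 0.03. Oxct1, the other main enzyme of ketone use, had 12.21 and 12.23 at 3 weeks, against 12.15 and 11.97 at 1 week. In glycolysis 10 of 27 were higher (37%, against 16.9% of all genes) and 1 lower (3.70%), with a median of 0.09. Pfkl, a phosphofructokinase, had 9.68 and 9.84 at 3 weeks, against 9.39 and 9.53 at 1 week. Ldha, lactate dehydrogenase A, had 12.45 and 12.76 at 3 weeks, against 12.27 and 12.44 at 1 week. Limma adjusted p was 0.416 and 0.613. Ucp3, the muscle uncoupling protein, had 7.76 and 8.35 at 3 weeks, against 9.42 and 8.16 at 1 week, which overlapped. Mitochondrial ribosome genes had 2 of 33 higher (6.06%) and 7 lower (21.2%), with a median of -0.01.

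Growth and signalling lists gave no call. The shares over all genes were 16.9% higher and 16.3% lower on both 3-week arrays. In the TGF-beta and BMP list 7 of 36 were higher (19.4%) and 3 lower (8.33%), with a median of 0.03. Mstn, myostatin, which restrains muscle growth, had 5.02 and 5.0 at 3 weeks, against 4.23 and 4.48 at 1 week (limma adjusted p = 0.0953). In the Wnt list 4 of 30 were higher (13.3%) and 3 lower (10%), with a median of 0.01. In the IGF and imprinted growth list 1 of 22 was higher (4.55%) and 4 lower (18.2%), with a median of -0.07. Mest, an imprinted gene of growing tissue, had 8.33 and 8.30 at 3 weeks, against 8.88 and 9.66 at 1 week (difference -0.95, limma adjusted p = 0.15). Sham RV had 7.08 and 7.22, below both. In the cytoskeleton list 1 of 39 was higher (2.56%) and 6 lower (15.4%), and 35 of 39 differences were below 0, with a median of -0.15. Fscn1, fascin, which bundles actin, had 8.40 and 8.37 at 3 weeks, against 8.96 and 9.23 at 1 week (limma adjusted p = 0.0618).

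Stress, protein and tissue identity lists also gave no call. Their counts stand beside 16.9% of all genes higher and 16.3% lower on both 3-week arrays. Endoplasmic reticulum genes had 2 of 33 higher (6.06%) and 6 lower (18.2%), with a median of -0.08. Oxidative stress genes had 5 of 25 higher (20%) and 4 lower (16%), immediate early genes 3 of 28 (10.7%) and 1 (3.57%), and protein turnover genes 4 of 20 (20%) and 2 (10%). Their medians were -0.04, -0.04 and 0.03. Gsta3, a glutathione transferase, had 7.06 and 7.41 at 3 weeks, against 6.64 and 6.40 at 1 week (limma adjusted p = 0.134). Bnip3, a mitophagy gene of hypoxic cells, had 10.75 and 11.12 at 3 weeks, against 10.37 and 10.42 at 1 week (limma adjusted p = 0.247). The chamber patterning factors Hand1, Hand2 and Tbx5 differed by 0.15, 0.13 and -0.22, and their list had 6 of 26 higher (23.1%) and 2 lower (7.69%). Conduction and nerve markers had 4 of 12 higher (33.3%) and 2 lower (16.7%), adipose markers 2 of 10 (20%) and 3 (30%), and none of the 3 measured erythroid genes was separated. Their medians were 0.00, -0.04 and 0.22.

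Atrial genes differed widely between the arrays of a group, and none was called. Bmp10, a growth factor of atrial muscle, had 4.52 and 8.79 in 3-week PAC ventricles, against 8.55 and 10.50 in 1-week PAC ventricles, and sham RV had 4.28 and 4.64. Array 1 at 3 weeks lay with sham and array 2 with the 1-week arrays, and the difference of -2.87 had an SE of 1.03 (limma adjusted p = 0.485). Myl7, the atrial myosin light chain, had 9.48 and 10.28 at 3 weeks, against 9.58 and 11.02 at 1 week. Of 16 atrial genes, 5 were lower on both 3-week arrays (31.2%, against 16.3% of all genes) and none higher, with a median of -0.33. With the atrial marker level as a covariate in the model, 3 genes were called in place of 11, and all 3 were among the 11.

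The genes filled in by smallest p did not pass the test. Among those with higher levels at 3 weeks, Slc26a10, Fam124b, Dennd3, Sncg, Prkcq and Vwa3a had differences between 0.53 and 0.96 and limma adjusted p between 0.0756 and 0.104. Prkcq, protein kinase C theta, had 7.12 and 7.15 in 3-week PAC ventricles, against 6.49 and 6.3 in 1-week PAC ventricles, with 7.67 and 7.41 in sham RV. Sncg, gamma-synuclein, had 7.96 and 7.86 at 3 weeks, against 7.43 and 7.33 at 1 week. In both genes the groups did not overlap and the sham arrays were above all 4.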

How the data were processed

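Gene expression was measured in mouse ventricles with Affymetrix whole-transcript arrays. The values are log2 expression levels deposited by the authors, made with RMA in Affymetrix Power Tools per the submitters' processing notes; RMA corrects background, equalises the arrays and sums probes, so levels of different probe sets do not compare. Software versions, genome build and probe definitions: not given in the sources used here. Of 35556 probe sets, 21789 list 1 gene, 1621 list several and 12146 are unlisted in the annotation. Where several probe sets measured the same gene, as for 999 genes, the brightest by its 12-array mean stood for it, and 91 single-gene probe sets kept an older name.

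The linear model of limma 3.58.1 in R 4.3.3 took 1 mean for each group and used all 12 arrays (6 residual and 4.6 prior df), and p-values were adjusted by Benjamini-Hochberg over 19938 genes. With 2 arrays a side, the smallest p of an exact permutation test is 0.33. The median SE was 0.112, and the number of arrays limits precision. The method was tested on simulated data.

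The comparison and the 50 gene lists (1199 genes, 1132 measured) were chosen with earlier results of these data known, and lists are described by counts and medians without a test. Named are up to 15 genes in each direction, called ones first and then by smallest p among genes without overlap, up to 6 members of each list, and a set of fixed genes that includes Nppa, Postn and Mmrn1. Predicted models, receptor segments and small RNA genes were left unnamed. Because no mitotic gene was called, motif shares cover all members of the lists with a RefSeq promoter. Samples with the same number deviated together with a correlation of 0.26 between 3-week and 1-week PAC, of 0.26 to 0.37 among the 3 PAC RV groups and of -0.24 to 0.37 over all pairs of groups. The labels do not tie same-numbered arrays to an animal or batch, so numbers were not used as pairs. Alternatives were cyclic loess, the mean over probe sets, leaving out dim genes, a trended and robust prior, a fit to only 4 arrays, a replicate block, an atrial covariate and leaving out each array. Leaving out array 2 of both times was chosen after seeing the data.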

Additional observations from a re-analysis of the deposited data

Results flagged for a closer look

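Signal appeared outside the 19938 genes. Of 1621 probe sets that list several genes, 17 had a limma adjusted p under 0.05 (1.05%), 8 higher and 9 lower at 3 weeks. An unadjusted p under 0.05 was found in 112 of them (6.91%), against 1586 of the 19938 single genes (7.95%). Their genes cannot be told apart by these probes and are not named. The 9 lower ones were alike. They read 5.86 to 5.99 on the 3-week PAC arrays, against 7.06 to 7.67 on the 1-week PAC arrays, 5.69 to 5.96 at 6 weeks and 6.05 to 6.32 in sham RV, with differences between -1.75 and -1.24. Probe sets with near-identical values may share probes, so these are not 9 separate results and may raise the 1.05%. Of the 12146 unlisted probe sets none was called by limma, and 723 had an unadjusted p under 0.05.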

How the results depend on the processing

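The direction of all 11 called genes held in each alternative in which they were measured, and no named gene that was called turned round. The count of 11 (5 higher, 6 lower) stayed at 11 with cyclic loess and with the mean over probe sets. It was 22 (11 higher, 11 lower) without dim genes, where fewer genes are tested, 34 (18 and 16) with a trended and robust prior, and 1 (1 and 0) with only the 4 arrays compared, where fewer samples give the spread. It was 3 (1 and 2) with the atrial covariate and 2 (1 and 1) without array 2 of both times. With the replicate block it was 8 (3 higher, 5 lower), of which 7 were among the 11; Arntl (adjusted p = 0.072), Ndnf (0.07), Tac1 (0.0619) and Tcap (0.0546) were not, and the arrays share only a number. Leaving out 1 array gave 3 to 346 calls, 1 to 59 higher and 2 to 287 lower. With 1 array left out at a time, list medians ranged from -1.06 to -0.311 for mitosis, -0.805 to -0.091 for macrophages, -0.229 to -0.062 for the clock, -0.854 to -0.247 for the epicardium, -0.016 to 0.23 for endothelium and 0.044 to 0.214 for mural cells. Without array 2 of both times the medians were -0.207 for mitosis, 0.058 for glycolysis, -0.146 for the clock and -0.838 for the epicardium. With the atrial covariate they were -0.124 for the clock and 0.216 for endothelium. The cause of these shifts was not tested.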
